A study of Mus musculus with 12 samples.

Results

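The genes described here encode the proteins of the cytosolic ribosome. Members were all gene symbols of the count table that start with Rps or Rpl followed by a digit, leaving out the S6 kinases and Rps19bp1, and the rule found 82 of the 14259 genes in the table. Of these, 71 are canonical ribosomal protein genes (30 of the small and 41 of the large subunit), 6 have symbols of paralogs (Rpl3l, Rpl7l1, Rpl22l1, Rpl36al, Rps4l and Rps27l) and 5 have symbols of pseudogenes or retrocopies. GENCODE M21 annotates Rps4l, too, as a processed pseudogene that is transcribed. All 82 passed the filter on low counts, which left 13782 genes to test. RNA was sequenced in bulk from Treg cells sorted from the bone marrow (BM) of C57BL/6 mice on day 14, in 4 groups of 3 libraries. The labels name sonicated nuclei as the source of the RNA, whereas the study's methods describe extraction from sorted cells with a kit. Whether the levels below are those of nuclei or of cells was not settled. Recipients in the model were irradiated and given T cell-depleted marrow with donor T cells. The no tumor WT group held WT Treg cells from recipients without leukemia. The other 3 groups came from recipients of MLL-AF9 cells, leukemic cells carrying an Mll fusion gene, and held WT, ST2-/- or Tbet-/- Treg cells. WT and ST2-/- Treg cells were sorted as CD4+CD25+ cells with the eGFP of a Foxp3 reporter, a fluorescence that the MLL-AF9 cells also carry, whereas Tbet-/- Treg cells were sorted as CD4+CD25+CD127- cells. The sort therefore cannot be told apart from the Tbet-/- label. The sources used here do not say that each library came from a separate mouse, so p-values measure the spread between libraries, which may be technical.

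Ribosomes translate mRNA and are built in the nucleolus from ribosomal RNA, most of which RNA polymerase I transcribes as a shared precursor, and from ribosomal proteins that are made in the cytoplasm and imported. The small subunit (Rps genes) binds and decodes mRNA and the large subunit (Rpl genes) joins amino acids. Ribosomal protein mRNAs typically begin with a C followed by a run of pyrimidines (C or T), the terminal oligopyrimidine start, through which mTOR signaling and Larp1 set their translation. T cells raise ribosome production when they are activated, and a protein made without its partners is degraded, so the members are needed in like amounts.

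The start sites of 7 members are printed because these genes mark the span of the changes described below, from the largest increases between no tumor WT and tumor WT to members that did not rise. Among them are starts with and without a C and pyrimidine run exactly at the annotated base. They were chosen after the values were seen. Each line gives 30 bases of the RefSeq sequence (GRCm38.p6), 5′ to 3′ on the gene's strand, and capitals mark the 15 bases from the annotated start onwards.
Rps26, chr10:128626492-128626521, minus strand: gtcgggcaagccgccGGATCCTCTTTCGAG
Rpl12, chr2:32961697-32961726, plus strand: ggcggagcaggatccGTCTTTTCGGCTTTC
Rpl24, chr16:55966260-55966289, plus strand: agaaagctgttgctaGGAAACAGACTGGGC
Rpl14, chr9:120571502-120571531, plus strand: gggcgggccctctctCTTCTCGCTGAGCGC
Rps6, chr4:86857353-86857382, minus strand: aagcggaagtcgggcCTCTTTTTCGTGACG
Rps3a1, chr3:86142654-86142683, minus strand: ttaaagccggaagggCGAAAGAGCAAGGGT
Rps9, chr7:3704026-3704055, plus strand: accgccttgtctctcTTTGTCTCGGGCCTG
Of the 82 members, 59 were matched to the RefSeq start table by symbol. A C followed by at least 4 pyrimidines stood exactly at an annotated start in 12 of them (20.3%), against 3.01% of the 27025 genes in the table, and Rpl14 and Rps6 are examples. The letters CTTTC, which can overlap that run, lay within 15 bases either side of the start on the gene's strand in 15 of the 59 (25.4%), against 4.76% of all genes, and on the other strand in 5.08%, against 4.21%. Rps26 carries CTTTC inside its capitals, a few bases after the annotated start. Between no tumor WT and tumor WT the 12 matched canonical members with the run exactly at the annotated start had a median log2 fold change of 0.15 (range -0.37 to 0.66). The 41 others had 0.28 (range -0.19 to 0.90), and both sets held large and small changes. A run displaced by a few bases was counted among the others, as in Rps9, where it crosses the annotated start. Whether the 41 lack a terminal oligopyrimidine start was therefore not settled. The members lie on 19 chromosomes, with at most 14 on a single one, chromosome 7.

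Libraries held 13272943 to 18042521 counts, and levels are given as counts scaled to library size (CPM) after TMM scaling, which sets the typical gene equal between libraries. A gene was called higher or lower at an adjusted p below 0.05 in edgeR's quasi-likelihood test, fitted over all 12 libraries and adjusted over the 13782 genes tested. Il1rl1, the gene of ST2, had 86.6 to 92.7 CPM in the libraries labelled ST2-KO, below tumor WT at 123 to 136 CPM but above no tumor WT at 74.8 to 79.0 CPM. The count columns of these libraries and of tumor WT also carry the same S numbers in their names, although their values differ. They are therefore called by their label. Tbx21, the gene of T-bet, had 13.8 to 16.1 CPM in the libraries labelled Tbet-KO, below tumor WT at 36.2 to 41.7 CPM but overlapping no tumor WT at 12.2 to 17.5 CPM. The part of either gene that the knockout removes was not examined.

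Markers of several marrow cell types were present and moved with the groups. All 14 T cell genes were detected in every library, and their summed level was 742 to 776 CPM without tumor, 1933 to 1976 CPM in tumor WT, 966 to 999 CPM in libraries labelled ST2-KO and 2196 to 2241 CPM in those labelled Tbet-KO. The sum of 12 B cell and precursor genes took the reverse order, at 4129 to 4177, 1154 to 1160, 2911 to 2997 and 108 to 115 CPM. The sum of 11 granulocyte genes was above both in every library, from 10754 CPM in a library labelled ST2-KO to 17153 CPM in a tumor WT library. Sums of 6 Treg cell genes were 667 to 678, 1410 to 1466, 1038 to 1047 and 1200.5 to 1204.1 CPM in the order of groups given for T cells. In Tbet-KO against tumor WT 5 of these 6 were called lower and 1 higher, where 20.6% of all genes were lower and 18.1% higher. The 14 T cell genes were split there, with 9 called higher and 3 lower. Sums of 10 monocyte and macrophage genes were 2373 to 2391, 3258 to 3355, 2466 to 2538 and 3127 to 3240 CPM in the same order of groups, and those of 5 erythroid genes 686 to 701, 813 to 856, 375 to 400 and 137 to 149 CPM. Of 7 stem and progenitor genes, 5 were higher in tumor WT than without tumor and 1 lower, with a median log2 fold change of 1.77. Of all genes tested, 29.0% were called higher there and 29.4% lower. The sum of these 7 genes was 1118 to 1144 CPM without tumor, 649 to 681 CPM for tumor WT, 1038 to 1099 CPM under the ST2-KO label and 750 to 773 CPM under the Tbet-KO label. Myb, the gene called lower, made up most of that sum, so the sum mainly follows Myb. It had 14303 to 17598 counts per library without tumor and 6964 to 8446 in tumor WT. Hoxa9, which rose, had 18 to 19 and 272 to 334 counts in these groups. No listed marker that was tested was at 0 in any library. In bulk RNA, fewer cells of a type and less RNA per cell cannot be told apart, and the part of these cell types in the ribosomal protein results was not tested. On counts scaled instead to the T cell genes, the median of all genes between no tumor WT and tumor WT was itself -1.38, and the median of the members was -1.12. Directions below are therefore relative to the typical gene. On the T cell scale the members' median reversed its sign in all 6 comparisons. A change of scale moves all genes by nearly the same amount. The distance of the members' median from that of all genes is therefore nearly fixed and cannot test the choice of scale. Between no tumor WT and tumor WT it was 0.25 on the TMM scale and 0.26 on the T cell scale.

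The share of all counts that fell on the 82 members averaged 1.67% ± 0.016 (SD, n = 3) without tumor, 2.15% ± 0.021 for tumor WT, 1.85% ± 0.034 for the libraries labelled ST2-KO and 2.16% ± 0.013 for those labelled Tbet-KO. Both genotype-labelled groups and tumor WT lay above no tumor WT without overlap, and tumor WT and the libraries labelled Tbet-KO overlapped. The order of the 4 groups was the same as for the summed T cell genes. Canonical small subunit genes held 0.712%, 0.889%, 0.789% and 0.907% of counts in these groups, and canonical large subunit genes 0.947%, 1.236%, 1.046% and 1.232%, so both subunits were lowest without tumor and next lowest under the ST2-KO label. Rn45s, the gene of the ribosomal RNA precursor, took 4.70% ± 0.22 (SD, n = 3), 3.60% ± 0.067, 7.24% ± 0.18 and 5.0% ± 0.25 of counts in the same groups. It was thus lowest in tumor WT, where the protein genes were high, and highest in the libraries labelled ST2-KO. Ribosomal RNA was removed from these libraries before sequencing, so Rn45s measures what the removal left, and its amount in the cells was not measured.

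**Figure D1:**
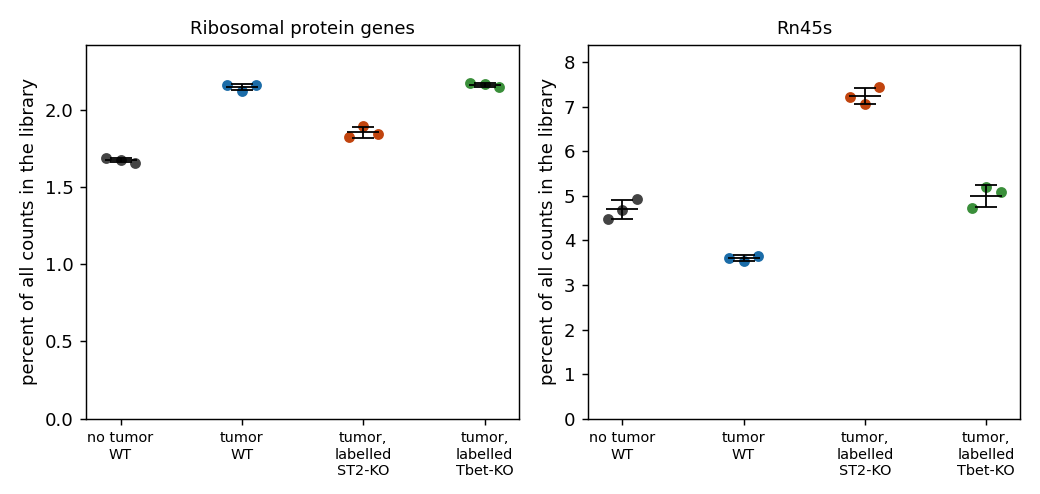
Share of all counts (percent, y axis) that fell on the 82 ribosomal protein genes (left) and on Rn45s (right) in each library, by group (x axis); points are libraries and bars the mean with the SD of 3. The protein genes run from 1.67% without tumor to 2.16% in the libraries labelled Tbet-KO, and Rn45s from 3.60% for tumor WT to 7.24% in the libraries labelled ST2-KO.

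The first comparison asks how libraries of sorted WT Treg cells from a leukemic marrow differ from those of a marrow without tumor. Markers of other cell types were present in both, as given above. Ribosomal protein genes were higher in tumor WT relative to the typical gene: 65 of the 82 members were called higher and 1 lower, where 29.0% of all genes tested were called higher and 29.4% lower. The median log2 fold change of the members was 0.25 (1.19-fold), against 0.00 for all genes, and no called member passed 1 log2 unit. Rpl3l, at -1.08 ± 0.57, was not called. CPM did not overlap between the groups, with tumor WT higher, for 66 of the 82 members, against 32.6% of all genes. The large subunit shared its direction, with all 41 canonical members above 0, 39 called higher and a median of 0.28 (quartiles 0.19 to 0.46). The small subunit was more mixed in direction, with 22 of 30 called higher, 1 lower and a median of 0.22 (quartiles 0.09 to 0.39).

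Rps26, a small subunit protein at the exit of the mRNA channel, had the largest increase. Its levels were 118, 128 and 108 CPM without tumor and 219, 222 and 224 CPM in tumor WT, a log2 fold change of 0.90 ± 0.049 (SE, edgeR adjusted p = 7e-29). The groups were far apart, since the highest no tumor WT library lay well under the lowest tumor WT library. Rpl12, a protein of the stalk base that recruits elongation factors, had 155, 146 and 151 CPM without tumor and 266, 256 and 271 CPM in tumor WT, a log2 fold change of 0.81 ± 0.039 (edgeR adjusted p = 9.9e-33). Rpl24, a large subunit protein at the subunit interface, rose from 103, 102 and 103 CPM to 170, 167 and 184 CPM, a log2 fold change of 0.76 ± 0.046 (edgeR adjusted p = 5.3e-26). The replicates of both genes varied by far less than the step between the groups. The fourth of the largest increases was that of the paralog Rps27l, at 0.72 ± 0.081 (edgeR adjusted p = 9.6e-13).

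A few small subunit genes stood apart from this rise. Rps9 was the sole member called lower, at 337, 334 and 325 CPM without tumor and 295, 284 and 296 CPM in tumor WT, a log2 fold change of -0.19 ± 0.033 (edgeR adjusted p = 1.3e-06). Its groups did not overlap. Rps3a1, the most abundant member per length, had 863, 843 and 828 CPM against 829, 818 and 832 CPM, a log2 fold change of -0.03 ± 0.024 that was not called. Rps6, the substrate of the S6 kinases that act under mTOR, had 403, 430 and 408 CPM against 410, 396 and 425 CPM, and its log2 fold change of -0.01 ± 0.030 was not called either. In both genes the groups overlapped. With 71 canonical members, the change had a Spearman correlation of 0.04 with gene length and -0.25 with level across genes, which are not independent replicates.

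**Figure D2:**
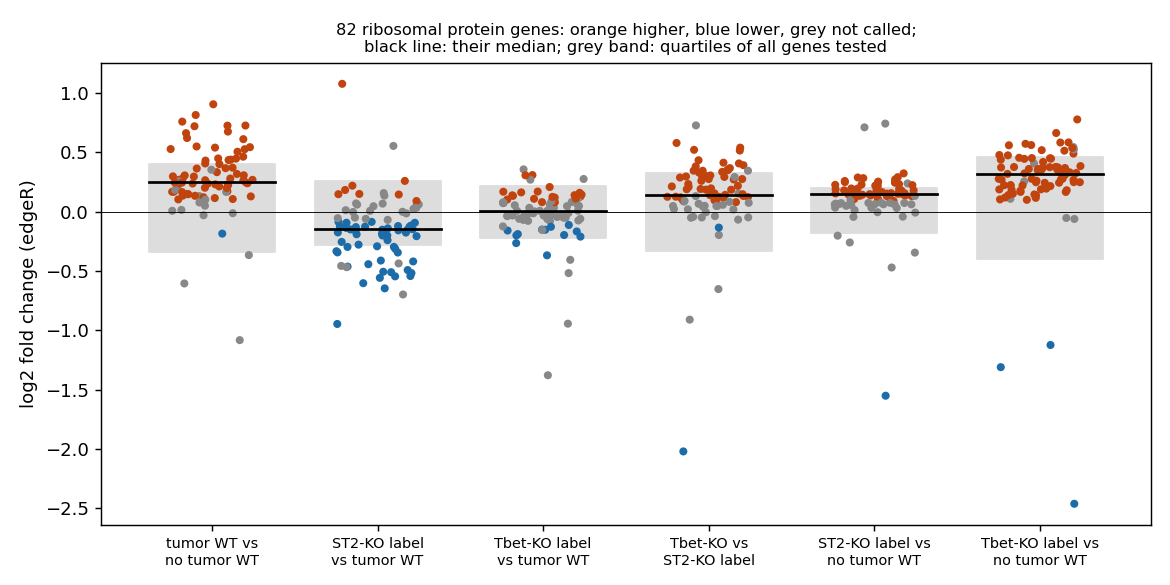
log2 fold change from edgeR (y axis) of each of the 82 ribosomal protein genes in the 6 comparisons (x axis), relative to the typical gene; orange points were called higher, blue lower and grey not called, the black line is the members' median and the grey band spans the quartiles of all genes tested. The median lies at 0.25 for tumor WT against no tumor WT and at -0.15 for the libraries labelled ST2-KO against tumor WT, and these signs reverse when counts are scaled to the T cell genes.

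Of 6 members listed for known roles, 5 were called higher in tumor WT than without tumor, and Rps6, given above, was not. This was near the rate of the whole family, of which 65 of 82 were called higher. Of all genes tested, 29.0% were called higher and 29.4% lower. Rpl5 and Rpl11, which bind Mdm2 together with the small RNA of the large subunit when assembly fails, had log2 fold changes of 0.27 ± 0.032 and 0.53 ± 0.052 (edgeR adjusted p = 9e-12 and 3.8e-15). Rpl22, which αβ T cells need for their development in mice, had 0.30 ± 0.048 (edgeR adjusted p = 1.2e-07). Rps19 and Rps14, whose loss in human patients causes or contributes to anemia, had 0.43 ± 0.043 and 0.20 ± 0.041 (edgeR adjusted p = 5e-15 and 1.7e-05). Of these genes Rpl11 rose the most and Rps14 the least. In the same comparison T cell markers were higher (14 of 14, median 1.45) and B cell markers lower (12 of 12, median -1.75), and their part was not tested.

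The second comparison sets the libraries labelled ST2-KO against tumor WT, both from recipients with leukemia. The direction was mostly the opposite relative to the typical gene: 50 of 82 members were called lower and 8 higher, where 22.8% of all genes were called lower and 23.1% higher. The median log2 fold change was -0.15, against 0.00 for all genes. Canonical large subunit genes were lower in 31 of 41 cases and higher in 2, and canonical small subunit genes lower in 15 of 30 and higher in 6. This comparison shares the tumor WT libraries with the first, so opposite signs in the pair are not separate evidence. The count of 8 higher rests in part on tumor WT replicate 2, without which it was 5.

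Rps26, the gene with the largest increase in the first comparison, had the lowest log2 fold change in this one. Its levels in the libraries labelled ST2-KO were 112, 129 and 104 CPM, a log2 fold change of -0.95 ± 0.050 against tumor WT (edgeR adjusted p = 2.5e-29). These values overlapped those of no tumor WT. Rpl24 had 110, 118 and 115 CPM there, a log2 fold change of -0.60 ± 0.046 (edgeR adjusted p = 4.7e-20). For both genes no library labelled ST2-KO reached the level of a tumor WT library. Among the members called higher, Rps9 had 328, 357 and 362 CPM (log2 fold change 0.26 ± 0.034, edgeR adjusted p = 3.1e-10) and Rps3a1 had 950, 948 and 987 CPM (0.22 ± 0.024, edgeR adjusted p = 1.3e-12), both without overlap with tumor WT. T cell markers were lower (14 of 14, median -1.03) and B cell markers higher (12 of 12, median 1.27) in the same libraries. Of all genes tested, 22.8% were called lower there and 23.1% higher. Rn45s was higher by 1.07 ± 0.017 on the log2 scale (edgeR adjusted p = 8.8e-65).

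**Figure D3:**
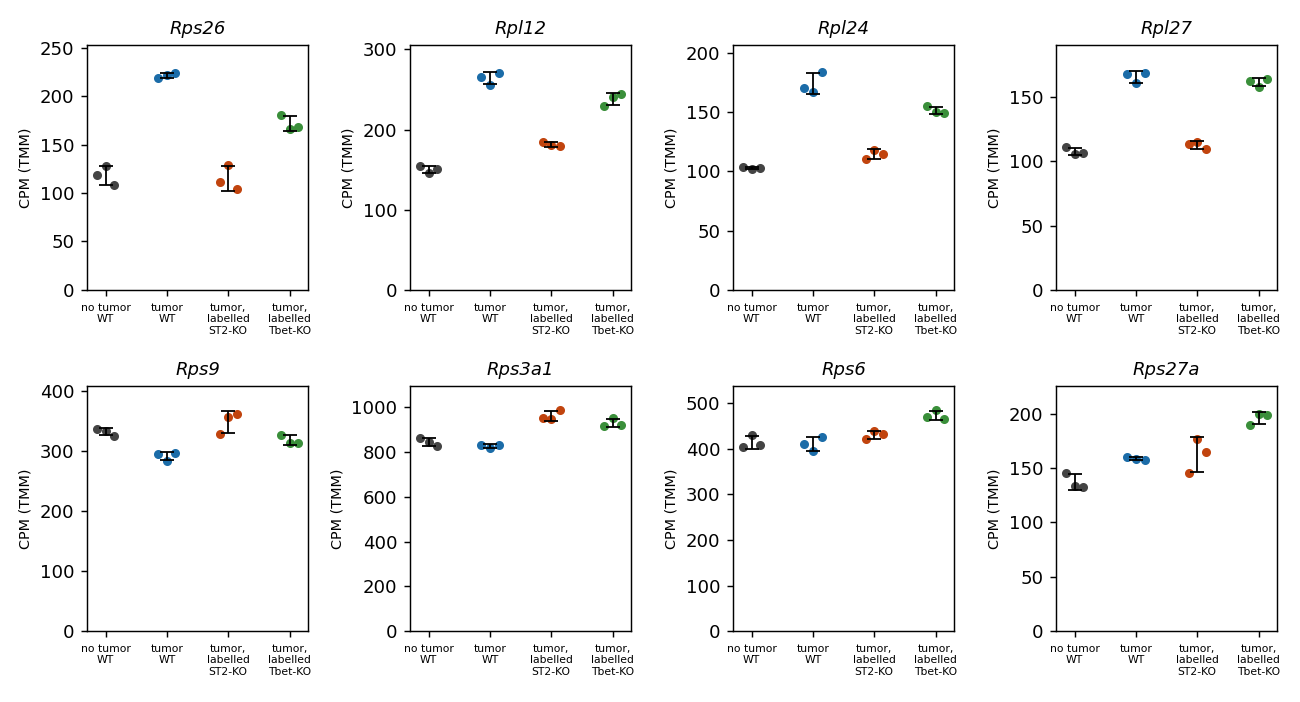
TMM-scaled CPM (y axis, from 0) of 8 ribosomal protein genes in each library by group (x axis); points are libraries and bars the mean with the SD of 3. Rps26, Rpl12, Rpl24 and Rpl27 are high in tumor WT, close to that or lower in the libraries labelled Tbet-KO and lower still in the other groups, whereas Rps9 is lowest in tumor WT, at 284 to 296 CPM.

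The third comparison, of the libraries labelled Tbet-KO with tumor WT, gave no shift of the family. Here 19 members were called higher and 12 lower, where 18.1% of all genes were called higher and 20.6% lower, and the median log2 fold change was 0.01, equal to that of all genes. That median turned to -0.01 without tumor WT replicate 2 or Tbet-KO replicate 2. Single members still differed. Rps26 had 181, 166 and 168 CPM, a log2 fold change of -0.37 ± 0.048 (edgeR adjusted p = 3.7e-10). It lay between tumor WT and the libraries labelled ST2-KO with no overlap. In the other direction Rps27a, which encodes a ribosomal protein fused to ubiquitin, had 160, 159 and 157 CPM in tumor WT and 190, 200 and 199 CPM in the libraries labelled Tbet-KO, a log2 fold change of 0.31 ± 0.045 (edgeR adjusted p = 2.2e-08). Rps6 had 469, 484 and 466 CPM there (0.21 ± 0.030, edgeR adjusted p = 1.5e-08), above every tumor WT library.

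Between the libraries labelled Tbet-KO and ST2-KO, 51 members were called higher in Tbet-KO and 2 lower, where 26.4% of all genes were higher and 27.4% lower. The median log2 fold change was 0.14, against 0.00. Rps26 (0.58 ± 0.051), Rpl27, a large subunit protein (0.52 ± 0.046), and the retrocopy Rpl37rt (0.54 ± 0.22) were among the 4 largest increases, with edgeR adjusted p = 2.4e-17, 2.2e-17 and 0.032. Rps9 and Rps27 were the 2 members called lower, and 4 were called lower without ST2-KO replicate 1. The call of Rpl37rt was lost without ST2-KO replicate 1 (log2 fold change 0.40) or Tbet-KO replicate 3 (0.38).

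Against no tumor WT, both other tumor groups were higher for most members. In the libraries labelled ST2-KO 49 members were called higher and 1 lower, where 15.0% of all genes were higher and 17.0% lower, with a median of 0.14 against -0.02 for all genes. In those labelled Tbet-KO 72 were called higher and 3 lower, where 31.9% of all genes were higher and 32.3% lower, with a median of 0.31 against 0.00. These comparisons share the no tumor WT libraries with the first. Rpl12 was 0.66 ± 0.039, Rpl14, a large subunit protein, 0.58 ± 0.036 and Rpl27 0.58 ± 0.045 log2 units higher in the libraries labelled Tbet-KO (edgeR adjusted p = 3.8e-27, 1.6e-25 and 3.3e-20). In the libraries labelled ST2-KO the increase of Rpl12 was 0.27 ± 0.040 (edgeR adjusted p = 2.9e-08), while Rps26 differed by -0.04 ± 0.052 and was not called. That value of Rps26 became -0.14, with an adjusted p of 0.038, without ST2-KO replicate 2, the highest of its group. Rn45s was higher in the libraries labelled ST2-KO by 0.60 ± 0.017 (edgeR adjusted p = 8.2e-47), whereas in those labelled Tbet-KO it was not called against no tumor WT (log2 fold change 0.00, adjusted p = 0.82). It was called there without Tbet-KO replicate 1 (0.046) or no tumor WT replicate 3, at values below 0.05 log2 units.

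Taking the means of the 4 groups, no tumor WT was lowest for 69 of the 82 members. The highest mean was in tumor WT for 34 members, in the libraries labelled Tbet-KO for 36, in those labelled ST2-KO for 10 and in no tumor WT for 2. Across the first 3 comparisons the commonest pattern, in 31 members, was a rise from no tumor WT to tumor WT, a level lower in ST2-KO than in tumor WT and no call between Tbet-KO and tumor WT, as for Rpl27 and Rpl14. A further 12, among them Rps26, Rpl12 and Rpl24, were in addition lower in Tbet-KO than in tumor WT. Another 6, among them Rpl3 and Rpl5, were higher in Tbet-KO instead. Rps9 alone went lower, then higher in both labelled groups. These counts of order and pattern were not made over all genes tested, so no background stands beside them. The first 3 comparisons share the tumor WT libraries, so opposite signs within a pattern are not separate evidence.

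**Figure D4:**
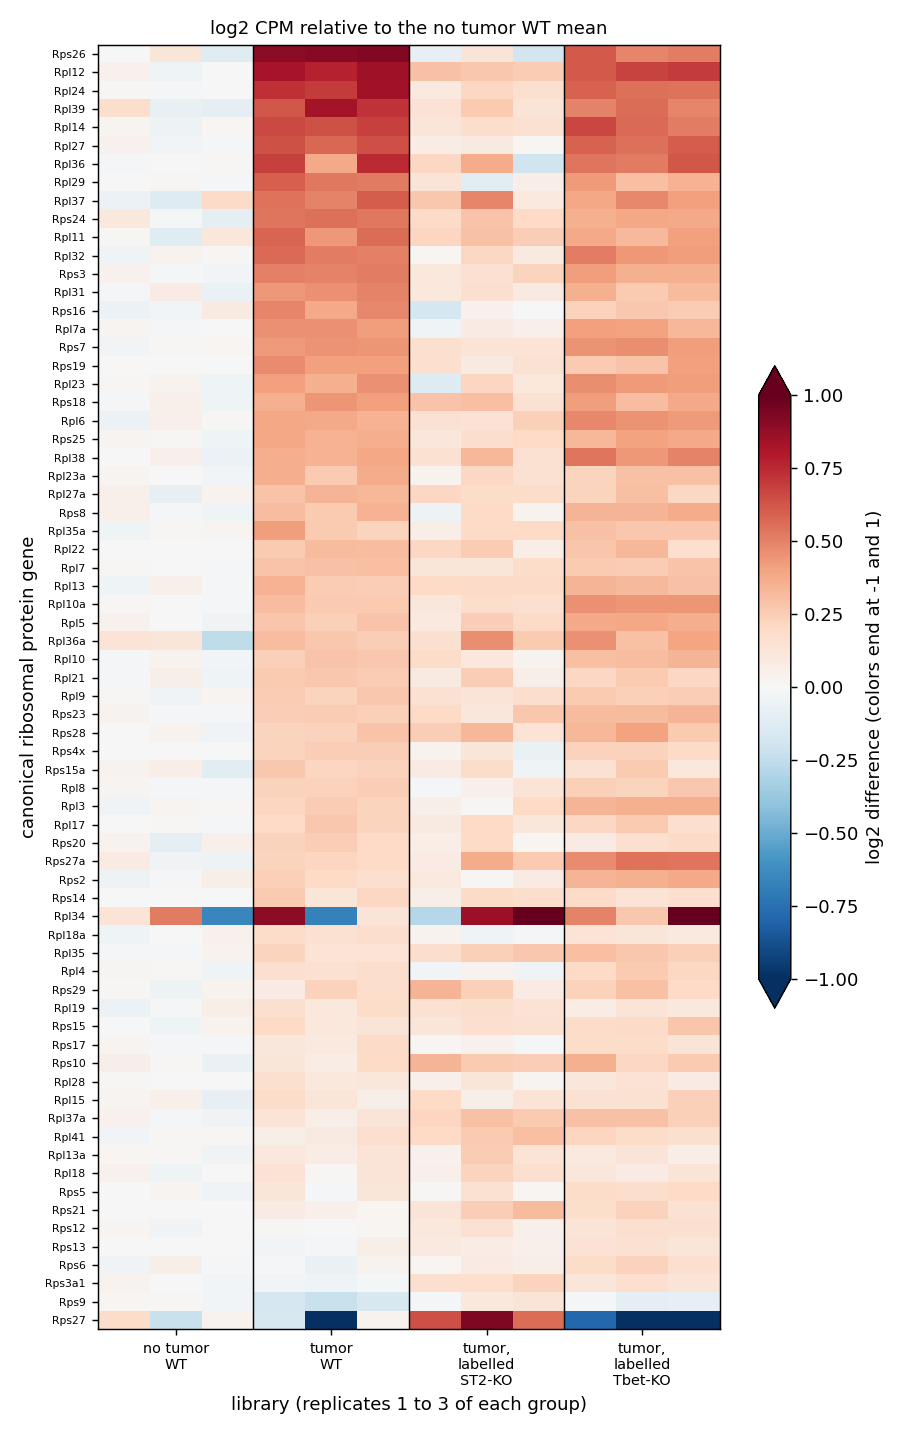
log2 CPM of the canonical ribosomal protein genes reported here (y axis) in the 12 libraries (x axis), each relative to the gene's mean in no tumor WT and sorted by the change to tumor WT; red is higher and blue lower, relative to the typical gene, with colors ending at 1 log2 unit. Most rows are red in tumor WT and Tbet-KO and pale in ST2-KO, and the noisy rows Rpl34 and Rps27 have 8 to 51 counts per library.

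The paralogs did not all behave as their parents. Rpl36al, broadly expressed like its parent, rose between no tumor WT and tumor WT (0.43 ± 0.083, edgeR adjusted p = 5.7e-06), as did Rpl36a (0.27 ± 0.089, adjusted p = 0.0074), whose call was lost without no tumor WT replicate 3 (0.15). Rpl7l1 and Rpl7 both rose as well, by 0.24 ± 0.077 and 0.30 ± 0.026 (edgeR adjusted p = 0.0063 and 1.4e-17). Rpl22l1, which Rpl22 represses in mice, was not called there (0.17 ± 0.089), whereas it was 0.31 ± 0.087 higher in Tbet-KO than in tumor WT (edgeR adjusted p = 0.0026), where Rpl22 was not called. That call of Rpl22l1 was lost without Tbet-KO replicate 1 (0.23). Whether a paralog and its parent differ was not tested.

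Rpl3l, the striated muscle form of Rpl3, was the scarcest member, with 21, 29 and 21 counts per library without tumor, 16, 14 and 6 for tumor WT, 5, 5 and 11 in ST2-KO and 4, 5 and 4 in Tbet-KO. It was called lower against no tumor WT in the libraries labelled Tbet-KO (log2 fold change -2.46 ± 0.65, edgeR adjusted p = 0.00065) and in those labelled ST2-KO (-1.55 ± 0.61, edgeR adjusted p = 0.041). The latter call was lost without any of the 3 no tumor WT replicates or without ST2-KO replicate 1 or 2 (log2 fold changes of -1.63 to -1.37). Rps4l, at 12 to 62 counts, was called lower in Tbet-KO against no tumor WT (-1.12 ± 0.44, edgeR adjusted p = 0.02), a call lost without no tumor WT replicate 2 (-0.72) or Tbet-KO replicate 2 (-0.89) or 3 (-0.95). Its parent Rps4x was higher there by 0.22 ± 0.035 (edgeR adjusted p = 7.7e-08).

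Rps27 and Rpl34 were canonical members with few counts. Rps27 had 32, 29 and 32 counts without tumor, 34, 13 and 31 for tumor WT, 42, 51 and 41 in ST2-KO and 19, 12 and 8 in Tbet-KO. Its log2 fold change in Tbet-KO against ST2-KO was -2.02 ± 0.44 (edgeR adjusted p = 4.9e-05). Its increase of 1.08 ± 0.40 in ST2-KO against tumor WT (edgeR adjusted p = 0.023) was lost without tumor WT replicate 2 (0.78) or ST2-KO replicate 2 (0.96). Rpl34, at 9 to 34 counts, was called in no comparison. Many ribosomal protein genes have near-identical copies elsewhere in the genome, and how reads with several matches were counted is not given in the sources used here, so these levels, and those of Rps4l and the 5 members named as pseudogenes or retrocopies, are uncertain. Of those 5, only Rpl37rt was called between no tumor WT and tumor WT (0.67 ± 0.22, edgeR adjusted p = 0.0067).

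Per length, on the deposited log2 FPKM scale, the highest mean levels over all libraries were those of Rps3a1 (9.88), Rpl41, the smallest ribosomal protein (9.80), and Rpl28 (9.68). The lowest were those of Rpl3l (-1.05), Rps4l (0.94) and Rpl34 (0.94). These lowest 3 are a muscle form, an annotated pseudogene and a gene whose level is uncertain. Apart from Rps27 and Rpl34, the canonical members had means from 5.30 (Rps15a) to 9.88.

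Other lists of the translation machinery had smaller medians in the first comparison. There 29.0% of all genes tested were called higher and 29.4% lower. Of 6 ribosomal proteins named outside the rule, 4 were called higher with tumor than without among WT libraries, among them Rplp0 of the stalk (0.34 ± 0.026, edgeR adjusted p = 4.9e-21). Of 35 translation factors 22 were higher and 3 lower, with a median of 0.15. Tpt1 (0.48 ± 0.025) and the helicase gene Eif4a1 (0.47 ± 0.033) led the increases, and Eif4a2, its close relative, was lower (-0.38 ± 0.037), with edgeR adjusted p = 1.9e-30, 9.2e-23 and 3.3e-15. The 77 mitochondrial ribosomal proteins showed no such shift, with 9 higher, 12 lower and a median of 0.02. Both counts were under the shares of all genes. Their extremes were Mrpl42 (0.74 ± 0.12) and Mrpl53 (-0.57 ± 0.15).

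Of 38 genes of ribosome assembly and RNA polymerase I, 13 were higher and 4 lower in tumor WT against no tumor WT. Of all genes, 29.0% were called higher there and 29.4% lower. The share higher was near the background and the share lower was under it. The median was 0.12, against 0.00 for all genes. In the libraries labelled Tbet-KO against tumor WT 25 were higher, where 18.1% of all genes were, with a median of 0.23 where the ribosomal protein genes had 0.01. Rrs1 and Rrp12, assembly factors first described in yeast, had 0.45 ± 0.13 and 0.44 ± 0.11 (edgeR adjusted p = 0.0037 and 0.0004). Myc, a transcription factor that drives ribosome production, was in the list of 23 regulators and had 72.3, 73.4 and 65.6 CPM in tumor WT and 103, 104 and 101 CPM in Tbet-KO, a log2 fold change of 0.54 ± 0.059 (edgeR adjusted p = 5.8e-13). In the same list Mtor had 326, 330 and 324 CPM without tumor and 148, 152 and 149 CPM in tumor WT. Its log2 fold change was -1.13 ± 0.037 (edgeR adjusted p = 1.4e-43), in the direction opposite to the ribosomal protein genes. Regulators as a list were split, with 8 higher and 9 lower in that comparison. On the log2 FPKM scale Mtor had 5.24 to 5.26 without tumor, 4.11 to 4.14 in tumor WT, 4.94 to 4.98 in ST2-KO and 3.69 to 3.74 in Tbet-KO. This was the group order of the summed B cell and precursor genes, and their part was not tested. Of 12 snoRNA host genes, noncoding transcripts whose introns hold guides for ribosomal RNA modification, 3 were higher and 3 lower in tumor WT, both near the shares of all genes (29.0% and 29.4%), and 7 were higher in Tbet-KO against tumor WT, where 18.1% of all genes were.

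**Figure D5:**
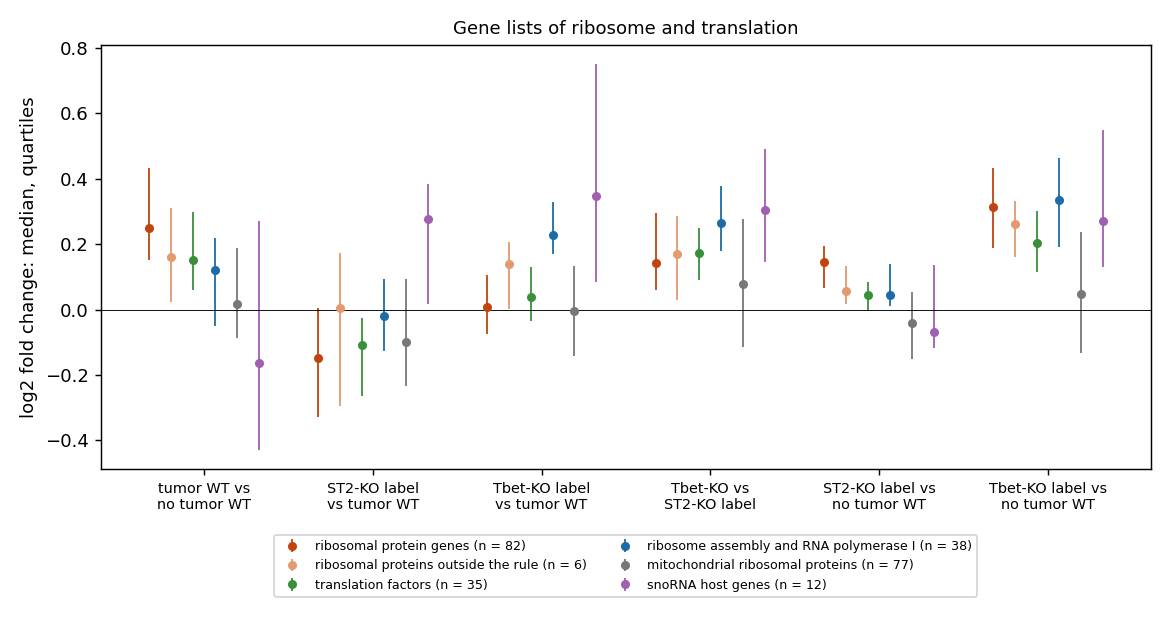
Median log2 fold change (points, y axis) with quartiles (bars) of 6 gene lists of the ribosome and translation in the 6 comparisons (x axis), relative to the typical gene. The cytosolic ribosomal protein genes have the highest median in tumor WT against no tumor WT (0.25), and the assembly genes exceed them in Tbet-KO against tumor WT (0.23 against 0.01); on counts scaled to the T cell genes all these medians shift together with that of all genes.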

How the data were processed

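Bulk RNA sequencing of 12 libraries was analysed. RNA came, per the labels, from sonicated nuclei as total RNA, with ribosomal RNA removed. The study's methods describe extraction from sorted cells instead. The authors aligned reads with STAR to mm10 and counted them per gene with featureCounts, and the counts they deposited are whole. On a check, the deposited log2 FPKM values were TMM-scaled log2 CPM (prior count 2) moved by a fixed amount per gene, to within 9.2e-14. Strand and multiple matches are not given in the sources used here. Tests used edgeR 4.0.16 under R 4.3.3: filterByExpr, TMM, a quasi-likelihood fit of 4 groups and 6 comparisons, Benjamini-Hochberg over all genes, called below 0.05. The common dispersion was 0.00305. The script was tested on simulated data. Depth limits only the scarce members.

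Members and lists were chosen with earlier results of these data known. Genes named were the 4 highest and 4 lowest changes per comparison, the 3 highest and 3 lowest levels, paralogs with parents, Rpl5, Rpl11, Rpl22, Rps6, Rps14, Rps19 and Rn45s, and up to 4 per other list. Comparisons of members are counts and medians without a set test. Alternatives were RLE, DESeq2 1.42.0, limma 3.58.1, other tests, filters and library sizes, a replicate block, each library left out, the T cell scale and, added after seeing the data, a fit without the libraries labelled ST2-KO. Replicates differed by more than sampling noise. Some genes that the rule names are left out of the text. Protein sequences were not used here.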

Additional observations from a re-analysis of the deposited data

How the results depend on the processing

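Scaled to the T cell genes, the counts of members higher and lower were 0 and 82 for tumor WT against no tumor WT, 78 and 0 for ST2-KO against tumor WT, 1 and 52 for Tbet-KO against tumor WT, 0 and 81 for Tbet-KO against ST2-KO, 0 and 70 for ST2-KO against no tumor WT and 0 and 81 for Tbet-KO against no tumor WT. The medians were -1.12, 0.84, -0.18, -1.03, -0.24 and -1.25 in that order, against -1.38, 0.99, -0.18, -1.18, -0.40 and -1.56 for all genes, and Rn45s in the last comparison was -1.55. This follows from the construction, since that scale subtracts the change of the T cell genes, whose own medians were 1.45, -1.03, 0.25, 1.15, 0.38 and 1.64. With calls also beyond 1 log2 unit, the counts higher and lower in the same order were 0 and 0, 1 and 0, 0 and 0, 0 and 1, 0 and 1, and 0 and 3. Members lower in tumor WT numbered 2, not 1, with only the 2 groups fitted, with limma on log2 FPKM, and without the libraries labelled ST2-KO (67 higher; the last chosen after seeing the data). Without Rn45s in the total, the shares were 1.76%, 2.23%, 2.0% and 2.28%. No mitochondrial transcripts were in the table, so that share was not run separately.

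Leaving out each library in turn, for the comparisons in the same order, members higher numbered 60 to 67, 5 to 9, 13 to 18, 46 to 55, 39 to 51 and 71 to 73. Members lower numbered 1, 43 to 49, 10 to 14, 2 to 4, 0 to 1 and 2 to 4. Medians were 0.24 to 0.27, -0.17 to -0.13, -0.008 to 0.012, 0.14 to 0.17, 0.13 to 0.15 and 0.29 to 0.31. Rn45s was -0.51 to -0.43, 1.05 to 1.09, 0.45 to 0.52, -0.63 to -0.55, 0.56 to 0.64 and -0.032 to 0.046, the last called without no tumor WT replicate 3 or Tbet-KO replicate 1 (0.046). Named genes were refitted one by one only with RLE, DESeq2, the replicate block and libraries left out, not on the T cell scale, and there 51 values lost a call, 18 gained it and 0 reversed. The replicate numbers did not pair the libraries (correlations of same-numbered deviations -0.02 to 0.02), and the replicate block left 0 members lower in ST2-KO against no tumor WT. Where not said, causes were not tested.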

Other observations

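Rmrp and Rpph1, the RNA parts of the nucleases that process ribosomal RNA and transfer RNA precursors, were chosen once their values had been seen. Rmrp had 735 to 782 CPM without tumor, 1793 to 1906 CPM for tumor WT, 1675 to 1978 in the libraries labelled ST2-KO and 1071 to 1143 in those labelled Tbet-KO. Its log2 fold change between no tumor WT and tumor WT was 1.29 ± 0.029 (SE, edgeR adjusted p = 2e-55). Rpph1 took another order, at 2524 to 2683, 1763 to 1835, 3218 to 3433 and 1540 to 1587 CPM. Between no tumor WT and tumor WT its log2 fold change was -0.52 ± 0.021 (edgeR adjusted p = 7.7e-38) and in ST2-KO against tumor WT it was 0.88 ± 0.021 (adjusted p = 2.3e-53).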
